A study of Rattus norvegicus with 44 samples.

Results

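In 44 male F344 rats whose dentate gyrus (DG) RNA was sequenced, 9 genes are described here that mark p53 activity or arrest of the cell cycle, out of 18347 genes in the table. They were chosen by name, as Cdkn1a, Pmaip1, Fas, Mdm2, Ccng1, Gadd45a, Cdkn1b, Cdkn2c and Lmnb1, and all 9 were present and passed the filter on low values. Young rats given vehicle were 6 months old (YNG, n = 10). The older rats started treatment at 12 months, and tissue was taken at about 18 months. They received vehicle (AV, n = 12), ABT-263 at 12 mg/kg (AA, n = 11), or dasatinib at 1.2 mg/kg with quercetin at 12 mg/kg (ADQ, n = 11), by oral gavage for 5 days in each of 8 cycles, with a last round before tissue collection. ABT-263 inhibits BCL2 family proteins, dasatinib is a kinase inhibitor and quercetin is a plant flavonoid. Both treatments are used as senolytics, that is to remove senescent cells. The DG was dissected from the hippocampus and sequenced as whole tissue with its glia and vessels, so a change in the number of cells of a type and a change of RNA per cell cannot be told apart.

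The protein p53 is a transcription factor that is stabilized after DNA damage and other stress. Among its targets, Cdkn1a encodes p21, which inhibits cyclin-dependent kinases and holds cells in G1, while Pmaip1 (Noxa) and Fas act in cell death. Mdm2 encodes the ubiquitin ligase that degrades p53, so that its induction closes a feedback loop. Cdkn1b (p27) and Cdkn2c (p18) are cell cycle inhibitors that are not regarded as classical p53 targets, and loss of lamin B1 (Lmnb1) from the nuclear envelope is a widely used sign of senescence. In the adult DG most cells are postmitotic granule neurons, next to a small pool of dividing progenitors.

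The region before each gene's start was searched for the p53 half-site consensus, the sequence of 10 bases that 1 dimer of p53 recognizes. The consensus reads the same on both strands. All 9 genes matched an entry in the RefSeq promoter table of the rat build GRCr8 by symbol, and a match stood in the 250 bases before the start used there for Cdkn1a, Ccng1, Gadd45a and Cdkn2c, 4 of the 9, against 6.64% of 33469 promoters. A match is a description of letters and not a measured site, and the absence of one says only that these letters do not stand in this window. Shown are 4 sequences, the 3 with a match that lie outside the annotated gene and that of Pmaip1, the gene with the largest rise in AV, which had none. Each is written 5′ to 3′ on the gene's strand, with the match in capitals. The Cdkn1a sequence ends where the annotated gene begins (chr20:7150682-7150819, plus strand), and the others end at the start. They are Ccng1 (chr10:25684877-25685126, minus strand), Gadd45a (chr4:97486800-97487049, minus strand) and Pmaip1 (chr18:62255720-62255969, plus strand).
Cdkn1a: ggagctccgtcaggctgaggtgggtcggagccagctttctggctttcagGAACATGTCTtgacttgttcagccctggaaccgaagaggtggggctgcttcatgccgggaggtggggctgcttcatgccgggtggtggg
Ccng1: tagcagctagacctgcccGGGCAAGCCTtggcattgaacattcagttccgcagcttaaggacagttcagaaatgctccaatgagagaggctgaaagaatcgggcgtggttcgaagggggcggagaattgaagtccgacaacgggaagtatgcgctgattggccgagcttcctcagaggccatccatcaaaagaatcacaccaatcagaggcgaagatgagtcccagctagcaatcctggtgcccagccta
Gadd45a: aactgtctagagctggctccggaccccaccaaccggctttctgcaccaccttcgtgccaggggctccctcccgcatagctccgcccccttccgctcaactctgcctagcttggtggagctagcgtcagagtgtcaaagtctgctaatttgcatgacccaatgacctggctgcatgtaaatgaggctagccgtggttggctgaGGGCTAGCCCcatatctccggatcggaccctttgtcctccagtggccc
Pmaip1: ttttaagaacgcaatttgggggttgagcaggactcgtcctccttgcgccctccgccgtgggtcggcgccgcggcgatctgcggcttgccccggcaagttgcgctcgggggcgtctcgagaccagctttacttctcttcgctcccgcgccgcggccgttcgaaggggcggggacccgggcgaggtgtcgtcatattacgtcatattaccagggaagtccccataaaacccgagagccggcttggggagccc
The first base of the match lay 201 bases before the start in Cdkn1a, 232 in Ccng1 and 48 in Gadd45a. In Cdkn2c it lay 11 bases before the start, and the whole window lay inside the annotated gene. The window of Mdm2, without a match, also lay wholly inside its annotated gene, as did 231 of the 250 bases of the Cdkn1b window. For these genes the region before the annotated gene was thus not searched, or hardly. Cdkn1a rose in AV, Ccng1 was lower in all 3 older groups, and Gadd45a passed the test in none, as described below, so the genes that share the match did not share a direction.

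Values are the authors' normalized values, that is reads of a gene divided by a size factor of the library. Differences are given as log2 differences of group means of log2(value + 1) with the standard error (SE) of a limma fit of all 15598 genes tested. Genes were called at an unadjusted p below 0.05. An adjusted p is that of Benjamini and Hochberg over all genes tested. The estimated depth was 10166691 to 24328425 reads per rat. The granule cell markers tested (4 of 6 listed, the other two being below the filter) were present in all groups, with sums of 9806 to 15760 in YNG. In markers of cell types some rats stood apart. In AV rat 3989 the summed endothelial markers reached 8122 and the CA1 pyramidal cell markers 29160, and in AA rat 4107 the granule cell markers were at 2780, the lowest of all rats, with CA1 markers at 43510. AV rat 4009 held the highest choroid plexus markers, at 1369 beside an AV median of 78.2, and the highest T and NK cell markers, at 765 beside 122. AA rat 3985 had choroid plexus markers at 942 (AA median 84.4), and AA rat 3988 had neural progenitor markers at 2357 (AA median 822). Leaving out each of these rats in turn ended no call of the 9 genes against YNG. Leaving out both 3989 and 4107 gave 5, 4 and 7 of the 9 genes called in AV, AA and ADQ against YNG, against 5, 3 and 6 with all rats. The share of all genes called without these rats is not given here. The rats were split by number into V1 to V6 and up to 4011 (series a, 22 rats) and V9 to V12 and from 4031 (series b, 22 rats). The labels name no batch and do not tie the V numbers to the others, so that this is only a split by number. In series b the AV rats are numbered 4566 to 4572, and the AA and ADQ rats 4031 to 4110. Within series b, treatment against vehicle and rat number therefore cannot be told apart.

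Compared with YNG, the vehicle-treated older rats had higher Pmaip1, Fas, Cdkn1a and Cdkn1b and lower Ccng1, while Pmaip1 and Cdkn1b were higher and Ccng1 lower in every older group. Of the 9 genes, AV had 4 higher and 1 lower, beside 21.3% of all genes tested called in either direction (10.6% higher and 10.7% lower). AA had 2 higher and 1 lower, beside 26.6% of all genes (12.6% and 14.1%). ADQ had 4 higher and 2 lower, beside 28.1% (13.5% and 14.6%). For the mean of the 3 older groups 6 were higher and 1 lower, beside 32.4% (15.7% and 16.7%). After adjustment 3 genes remained below 0.05 in AV (Pmaip1, Fas and Cdkn1a, with 2.35% of all genes called), 1 in AA (Ccng1, 3.85%), 2 in ADQ (Pmaip1 and Mdm2, 7.08%) and 3 for the mean of the older groups (Pmaip1, Ccng1 and Cdkn1b, 14.9%). The median log2 difference of the 9 genes was 0.22 in AV, 0.29 in AA and 0.25 in ADQ, beside medians over all genes within 0.01 of 0 (-0.002, 0.001 and 0.006). The 3 comparisons share the YNG rats.

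**Figure D1:**
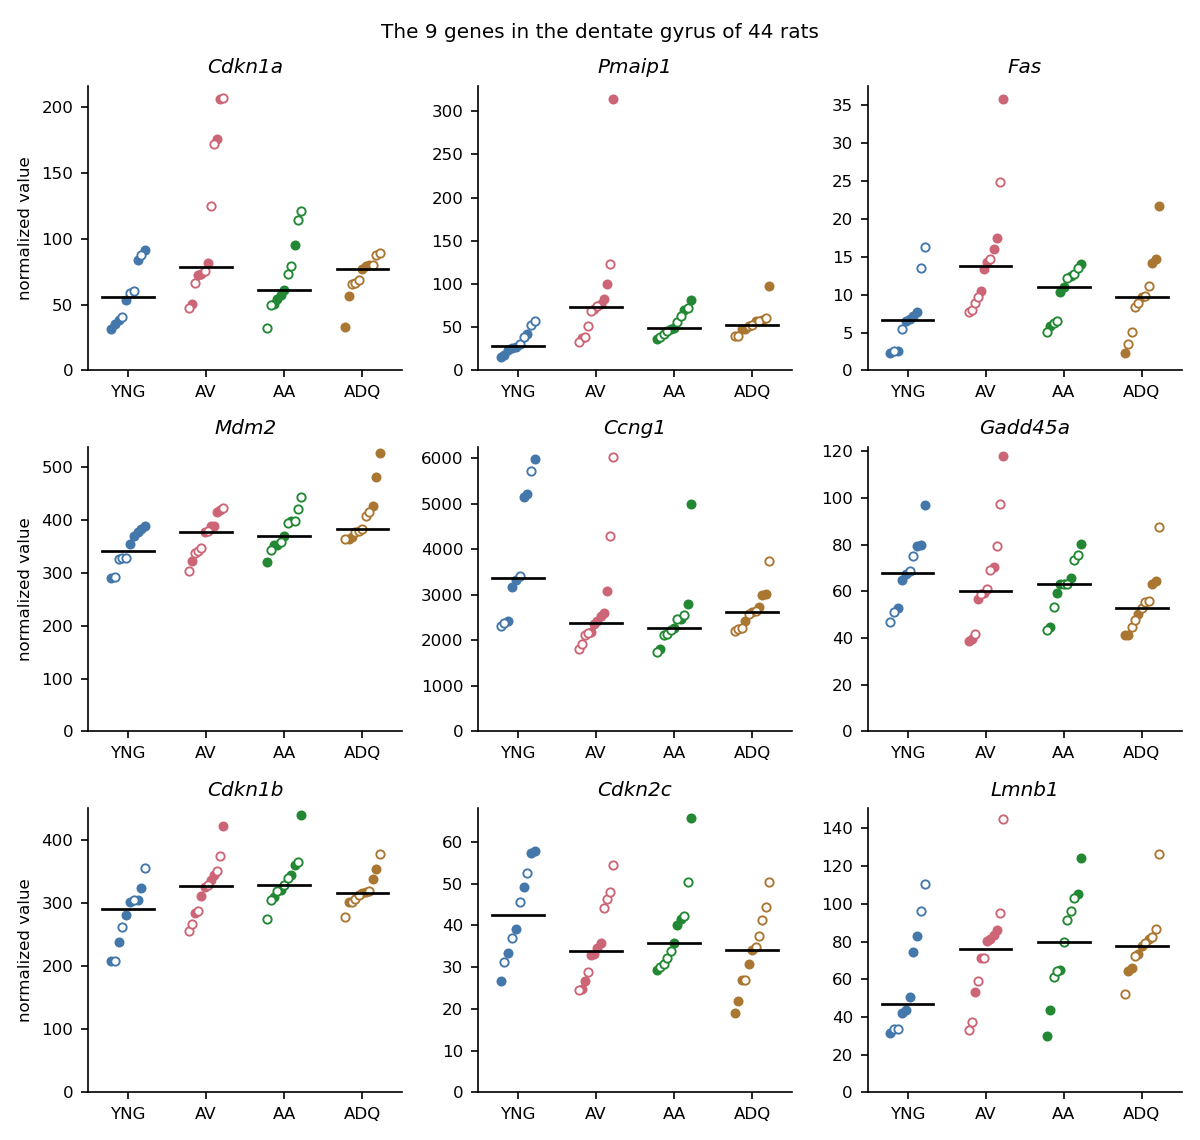
Normalized value of each of the 9 genes (y axis, from 0) in each of the 44 rats, by group (x axis). Filled points are rats of number series a, open points are rats of series b, and the bar is the group median. Pmaip1 lies above the YNG median in all older rats. In AV, 5 rats lie above every YNG rat in Cdkn1a, and rat 3989 is the highest of all rats in Pmaip1, Fas and Gadd45a.

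These counts depended on the scaling of the libraries. Scaling each rat to the same total raised the median log2 difference of all genes by 0.103 for AV, 0.149 for AA and 0.141 for ADQ, and for AV turned the split of 1651 genes higher and 1675 lower into 2820 and 656 (upper quartile scaling gave 2011 and 1284). Of the 15598 genes tested, 4413 were higher and 762 lower in AA under total scaling, and 4315 and 908 in ADQ. Beside these, 6 of the 9 genes were called in AV, 6 in AA and 4 in ADQ under it. Pmaip1 and Cdkn1b were called higher in all 3 groups under it, and Mdm2 as well, at 0.21, 0.28 and 0.39. Ccng1 was called lower in AV (-0.38) and AA (-0.46) but not in ADQ (-0.33, p = 0.0528). The differences below are those of the authors' scaling.

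**Figure D2:**
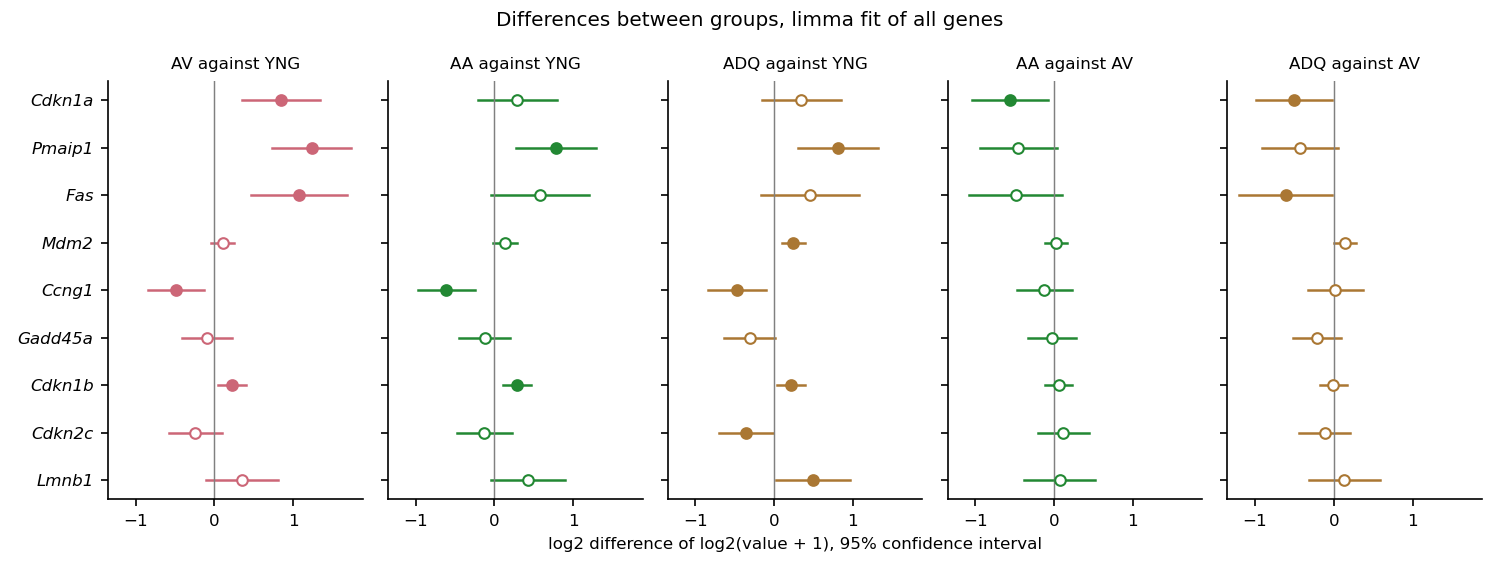
Log2 difference (x axis) of the 9 genes (y axis) with its 95% confidence interval in 5 comparisons, from the limma fit of all genes. Filled points have an unadjusted p below 0.05, which in the comparisons with AV holds for Cdkn1a in both and for Fas in ADQ.

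Pmaip1 (ENSRNOG00000018770) encodes Noxa, a BH3-only protein that binds and neutralizes MCL1. It showed the largest rise of the 9 genes in each of the 3 comparisons with YNG. Its normalized value was 15.3 to 57.6 with a median of 28.7 in YNG, 33.2 to 314 with a median of 72.8 in AV, 36.6 to 81.8 with a median of 49.3 in AA and 40.0 to 98.1 with a median of 52.1 in ADQ. Every older rat lay above the YNG median, and 8 of 12 AV, 4 of 11 AA and 3 of 11 ADQ rats lay above every YNG rat. The log2 difference from YNG was 1.24 (SE 0.25, adjusted p = 0.00355) in AV, 0.78 (SE 0.25, p = 0.00339, adjusted p = 0.059) in AA and 0.81 (SE 0.25, adjusted p = 0.0436) in ADQ. The highest value of all 44 rats came from AV rat 3989, and without it and AA rat 4107 the AV difference was 1.05 (adjusted p = 0.00488).

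The Pmaip1 level moved with endothelial markers. All 5 endothelial markers tested were higher in AV than in YNG (21.3% of all genes called), 2 in AA and 1 in ADQ. Their summed value was 1196 to 4036 in YNG, 2075 to 8122 in AV, 2153 to 3417 in AA and 2125 to 2656 in ADQ. Across the 44 rats, after the group means were taken off, the log2 Pmaip1 value correlated with the endothelial score at r = 0.80, with the pericyte and smooth muscle score at 0.75, with the astrocyte score at 0.67 and with the T and NK cell score at 0.55, and at 0.72, 0.69, 0.66 and 0.39 without rat 3989. The values of a rat come from 1 library with 1 size factor, and the part of the vessel markers in the Pmaip1 difference was not tested.

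Fas (ENSRNOG00000019142), the death receptor that binds Fas ligand, was measured at low values, with medians of 6 estimated reads in YNG and 14.5 in AV. Normalized values were 2.29 to 16.3 with a median of 6.61 in YNG, 7.70 to 35.8 with a median of 13.8 in AV, 5.02 to 13.99 with a median of 11.0 in AA and 2.31 to 21.7 with a median of 9.68 in ADQ. All 12 AV rats lay above the YNG median and 3 of them above every YNG rat, while 7 of 10 YNG rats lay below every AV rat. Fas was higher in AV than in YNG by 1.07 (SE 0.30, p = 0.000913, adjusted p = 0.0433). In AA the log2 difference of 0.58 (SE 0.31, p = 0.0645) and in ADQ that of 0.46 (SE 0.31, p = 0.142) did not pass. The AV difference was 0.95 without rats 3989 and 4107 (p = 0.00274, adjusted p = 0.085).

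Cdkn1a (ENSRNOG00000000521) was higher in AV than in YNG, by an amount that varied between rats. Of the 12 AV rats 10 lay above the YNG median, and 4 of 10 YNG rats lay below every AV rat. The call held with each rat left out in turn, at log2 differences of 0.75 to 0.94. Normalized values were 31.4 to 91.6 with a median of 56.0 in YNG, 47.1 to 207 with a median of 78.7 in AV, 32.6 to 121 with a median of 60.8 in AA and 33.3 to 88.9 with a median of 76.8 in ADQ. In AV 5 rats lay above every YNG rat, up to 207.4 in rat 4571 and 206.6 in rat 3989, with rat 4009 at 175.9, while the other 7 overlapped YNG. In AA 3 rats and in ADQ none lay above every YNG rat, although 10 of 11 ADQ rats lay above the YNG median. The log2 difference from YNG was 0.85 (SE 0.24, p = 0.00116, adjusted p = 0.0496) in AV, 0.29 (SE 0.25, p = 0.245) in AA and 0.34 (SE 0.25, p = 0.177) in ADQ. Within groups Cdkn1a correlated with the score of T and NK cell markers at r = 0.54, with oligodendrocyte markers at 0.46 and with endothelial markers at 0.42 (n = 44), and 0.47, 0.39 and 0.33 without rat 3989. Of those lists, 3 of 4 T and NK cell markers were higher in AV than in YNG, with sums of 7.52 to 119.9 in YNG and 1.07 to 765 in AV. The remaining marker, Cd3e, went the other way without a call (-0.41, p = 0.644). Of 6 oligodendrocyte markers 5 were higher, with sums of 42600 to 119500 in YNG and 54750 to 174700 in AV. Of all genes 10.6% were called higher in AV. The part of these markers in the Cdkn1a difference was not tested.

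Mdm2 (ENSRNOG00000006304) varied little between rats. Normalized values were 289 to 389 with a median of 342 in YNG, 304 to 422 with a median of 377 in AV, 321 to 443 with a median of 370 in AA and 363 to 526 with a median of 384 in ADQ. All 11 ADQ rats lay above the YNG median, and 6 of 10 YNG rats lay below every ADQ rat. Mdm2 was higher in ADQ than in YNG by 0.24 (SE 0.07, p = 0.00188, adjusted p = 0.0377), a fold of 1.19. The gene is held in 2 rows of the table, and in the larger row alone the difference was 0.04 (p = 0.716), without a call. The differences in AV (0.11, SE 0.07, p = 0.153) and AA (0.13, SE 0.07, p = 0.0756) did not pass.

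Ccng1 (ENSRNOG00000003256) encodes cyclin G1, a p53 target that recruits phosphatase 2A to MDM2. Ccng1 ran against Pmaip1, Fas, Cdkn1a and Mdm2, the p53 targets described above, which were higher where called against YNG. In the wider list of p53 targets described below, genes were called in both directions. Normalized values were 2313 to 5977 with a median of 3370 in YNG, 1807 to 6035 with a median of 2391 in AV, 1748 to 4997 with a median of 2262 in AA and 2200 to 3735 with a median of 2622 in ADQ. In each older group all but 1 or 2 rats lay below the YNG median. The groups overlapped, since the lowest YNG rats, V10, V11 and V6 at 2313 to 2416, lay among the older rats, and AV rat 4567, at 6035, lay above every YNG rat. The 4 highest YNG rats, V1, V2, V4 and V12 at 5152 to 5977, lay above all AA and ADQ rats. Ccng1 fell by 0.49 on the log2 scale in AV (SE 0.18, p = 0.00891, adjusted p = 0.115), by 0.61 in AA (SE 0.18, p = 0.00165, adjusted p = 0.0491) and by 0.47 in ADQ (SE 0.18, p = 0.0129, adjusted p = 0.0869). Within groups Ccng1 correlated with the red blood cell score at r = 0.57 and with the astrocyte score at -0.46 (0.66 and -0.46 without rat 3989). The part of these markers in the Ccng1 difference was not tested. The library total of normalized values also moved with Ccng1 (r = 0.49 within groups), and its median was 16660960 in YNG against 15376067 to 15537154 in the older groups. With the library total as a covariate, an alternative chosen after seeing the data, the log2 differences were -0.27 in AV (p = 0.112), -0.29 in AA (p = 0.109) and -0.17 in ADQ (p = 0.333).

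Gadd45a (ENSRNOG00000005615), a stress sensor that acts in G2 arrest and DNA repair, passed the limma test in no comparison. Normalized values were 47.0 to 96.9 with a median of 68.0 in YNG, 38.8 to 118 with a median of 60.1 in AV, 43.5 to 80.4 with a median of 63.3 in AA and 41.1 to 87.7 with a median of 52.95 in ADQ. The groups overlapped, and rat 3989 held the highest value. The log2 difference from YNG was -0.10 in AV (95% confidence interval -0.42 to 0.22), -0.12 for AA (-0.45 to 0.20) and -0.31 for ADQ (-0.64 to 0.01, p = 0.06). A permutation of the group labels gave p = 0.0382 for ADQ. Without rats 3989 and 4107 the ADQ difference of -0.31 passed (p = 0.0446), and under total scaling the AA difference was 0.03, with the sign turned.

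Cdkn1b (ENSRNOG00000007249) was higher in all 3 older groups by a small amount. Its normalized value was 207 to 355 with a median of 291 in YNG, 256 to 422 with a median of 327 in AV, 274 to 439 with a median of 329 in AA and 278 to 377 with a median of 316 in ADQ. Between 3 and 4 of the 10 YNG rats lay below every rat of an older group, and most rats overlapped. The log2 difference was 0.22 (SE 0.09, p = 0.0138, adjusted p = 0.139) in AV, 0.29 (SE 0.09, p = 0.00255, adjusted p = 0.0547) in AA and 0.22 (SE 0.09, p = 0.0194, adjusted p = 0.108) in ADQ. Within groups its r was 0.45 with the astrocyte score and -0.31 with the red blood cell score (0.40 and -0.53 without rat 3989). Cdkn1b moved against the library total (r = -0.47 within groups), and with the total as a covariate the differences were 0.13 (p = 0.127), 0.15 (p = 0.106) and 0.09 (p = 0.329). The ADQ call was also lost without YNG rat V1 or V9.

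Cdkn2c (ENSRNOG00000008956), which inhibits CDK4 and CDK6, was lower in ADQ alone among the older groups, though its difference between AV and ADQ did not pass the test (-0.12, p = 0.477). Normalized values were 26.7 to 57.8 with a median of 42.4 in YNG, 24.6 to 54.4 with a median of 33.9 in AV, 29.4 to 65.8 with a median of 35.8 in AA and 18.98 to 50.5 with a median of 34.1 in ADQ. In ADQ 2 rats lay below every YNG rat and 3 YNG rats above every ADQ rat. The log2 difference was -0.25 (SE 0.17, p = 0.15) in AV, -0.12 (SE 0.17, p = 0.469) in AA and -0.36 (SE 0.17, p = 0.0394, adjusted p = 0.156) in ADQ. Leaving out any of 10 single rats took the ADQ difference past the threshold, to p values of up to 0.0941, and a permutation of the group labels gave p = 0.0519. The ADQ difference was -0.68 in number series a and -0.08 in series b (interaction p = 0.0707 in limma, where 8.89% of all genes had one below 0.05).

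Lmnb1 (ENSRNOG00000013774), which encodes lamin B1, was called lower in no older group. Normalized values were 31.6 to 110.5 with a median of 47.1 in YNG, 32.9 to 145 with a median of 75.8 in AV, 29.95 to 124.5 with a median of 79.5 in AA and 52.1 to 126 with a median of 77.4 in ADQ. All 11 ADQ rats lay above the YNG median and 6 of 10 YNG rats below every ADQ rat. Lmnb1 was higher in ADQ by 0.49 (SE 0.23, p = 0.0416, adjusted p = 0.16), and the log2 differences of 0.35 (SE 0.23, p = 0.129) in AV and 0.42 (SE 0.23, p = 0.075) in AA did not pass. Leaving out any of 11 single rats took the ADQ difference past the threshold, to p values of up to 0.0943. With the library total as a covariate it was 0.04 (p = 0.845), and the r of Lmnb1 with that total was -0.59 within groups. With the red blood cell score r was -0.50 and with the microglia score -0.44 (-0.59 and -0.50 without rat 3989).

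Between the older groups few of the 9 genes differed, and none after adjustment. In AA against AV, Cdkn1a was the 1 gene called, where 4.51% of all genes were (1.4% higher and 3.1% lower). It was lower in AA by a log2 difference of -0.55 (SE 0.24, p = 0.0247, adjusted p = 0.999). In AV 5 rats lay above every AA rat, and 7 of 11 AA rats lay below the AV median. In ADQ against AV, Cdkn1a (-0.51, SE 0.24, p = 0.0396, adjusted p = 0.512) and Fas (-0.61, SE 0.29, p = 0.0435, adjusted p = 0.521) were lower, where 9.32% of all genes were called (3.42% higher and 5.9% lower). For Pmaip1 the log2 difference from AV was -0.45 (95% confidence interval -0.94 to 0.03) in AA and -0.43 (-0.92 to 0.06) in ADQ. In AA against ADQ none of the 9 genes was called at an unadjusted p below 0.05, where 4.53% of all genes were (2.13% higher and 2.4% lower), with intervals from -0.54 to 0.44 for Cdkn1a and from -0.52 to 0.47 for Pmaip1. In none of these comparisons did any of the 15598 genes pass after adjustment, with 703, 1454 and 707 genes at an unadjusted p below 0.05.

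The lower Cdkn1a and Fas of the treated groups depended on single rats. Without AV rat 3989 and AA rat 4107 the Cdkn1a difference was -0.47 in AA (p = 0.06) and -0.41 in ADQ (p = 0.0927), and that of Fas in ADQ was -0.49 (p = 0.1). The Cdkn1a call in AA was lost without AV rat 3989 alone, and also without AV rat 4009, 4568 or 4571 or AA rat 4077, and that in ADQ without AV rat 3989, 4009, 4568, 4571 or 4572 or ADQ rat 4004 or 4007. The Fas call was lost without any of 10 single rats, with differences of -0.74 to -0.46 over all rats left out in turn. By permutation of the group labels over rats, two-sided with 100000 resamples, p was 0.0655 for Cdkn1a in AA, 0.0669 in ADQ and 0.0546 for Fas in ADQ. Of the cell type markers, 4 of 5 endothelial, 5 of 6 microglial, 4 of 6 oligodendrocyte, 3 of 4 T and NK cell and 4 of 4 red blood cell markers were lower in ADQ than in AV, and in AA the numbers were 2, 3, 0, 3 and 1. Of all genes 5.9% were lower in ADQ and 3.1% in AA. Choroid plexus had 2 of 4 lower in ADQ and none in AA. Astrocyte, pericyte and smooth muscle, and oligodendrocyte precursor markers had 1 lower in each. In ADQ 1 of 4 neural progenitor markers was higher, and in AA 1 of 3 CA3 and mossy cell markers. Granule cell, CA1 and meninges markers had none called. The summed red blood cell markers were 3679 to 90350 in AV, highest in rat 3989, against 3769 to 26740 in AA and 3318 to 13920 in ADQ. What these markers contribute to the Cdkn1a and Fas differences was not tested.

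The differences from YNG were larger in number series a than in b for Pmaip1. In series a its normalized value was 15.3 to 41.8 with a median of 24.5 in the 6 YNG rats and 37.8 to 314 with a median of 79.6 in the 6 AV rats. In series b it was 30.1 to 57.6 with a median of 45.6 in 4 YNG rats and 33.2 to 123 with a median of 60.3 in 6 AV rats. Fas in series b ran from 2.499 to 16.3 in YNG and from 7.70 to 24.8 in AV. The log2 difference of Pmaip1 in AV was 1.87 in rats of series a and 0.44 in those of series b (p = 0.138), a difference between series of 1.43 (SE 0.47, p = 0.00407, adjusted p = 0.0651 in limma), where 21.8% of all genes had an interaction p below 0.05. For Fas the values were 1.54 and 0.49 (interaction p = 0.0886), and for Cdkn1a 0.90 and 0.75 (interaction p = 0.768). Within series a, 5, 4 and 5 of the 9 genes were called in AV, AA and ADQ against YNG, where 33.4%, 28.5% and 27.3% of all genes were. Within series b the counts were 0, 1 and 1, where 6.28%, 12.4% and 6.87% of all genes were called, and the gene called in AA and ADQ was Mdm2 in both. Series b holds 4 YNG rats, and its AV rats are numbered apart from its AA and ADQ rats. Number and any shared handling cannot be told apart.

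**Figure D3:**
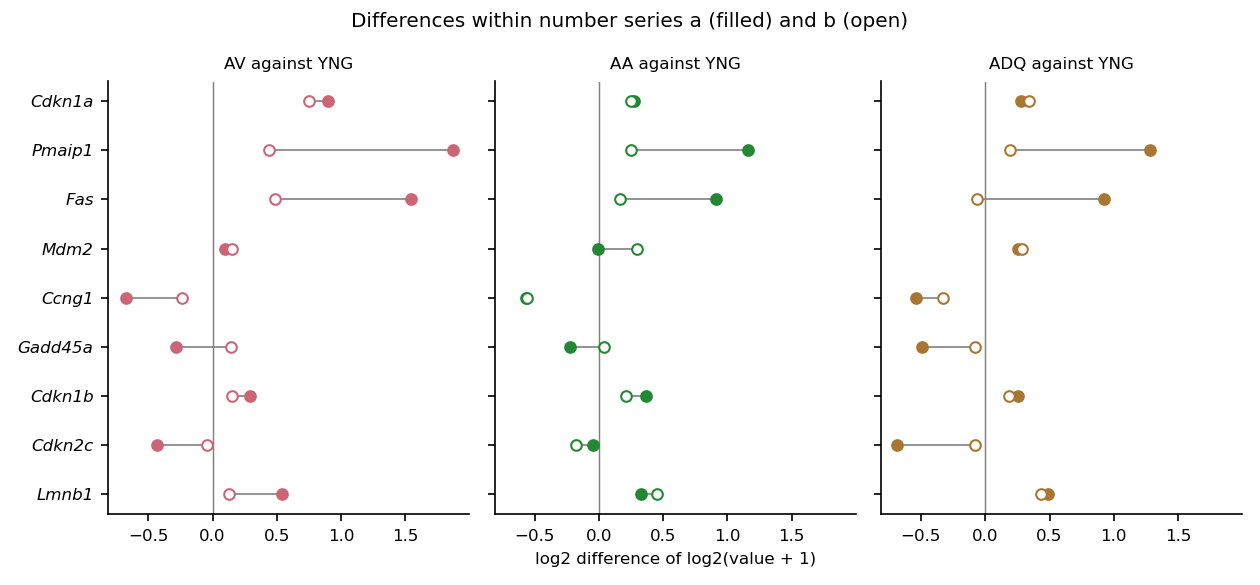
Log2 difference from YNG (x axis) of the 9 genes (y axis) within number series a (filled) and b (open) in the 3 older groups, joined by a line. Pmaip1 and Fas lie further right in series a than in series b in all 3 panels, while Cdkn1a in AV lies at 0.90 and 0.75.

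Of the genes, 3 are held in 2 rows of the table each, whose values were summed above. For Mdm2 the rows did not move alike. The larger row, which held 43.6% to 91.7% of the gene's value over the rats, had the log2 difference of 0.04 in ADQ given above, and the smaller one rose by 0.67 (SE 0.23, p = 0.00508, adjusted p = 0.076), with normalized values of 52.8 to 140 in YNG and 99.1 to 220 in ADQ. For Cdkn1a the larger row held 65.0% to 100% of the value and was higher in AV by 0.77 (p = 0.00434), while the smaller row was higher by 1.49 in AV (SE 0.38, adjusted p = 0.0361), 0.89 in AA (p = 0.0272) and 1.12 in ADQ (p = 0.00625). The smaller row of Cdkn1a is low, with medians of 4.07 for YNG, 13.9 for AV, 7.19 for AA and 10.0 for ADQ. For Ccng1 the larger row fell in all 3 groups (-0.54, -0.64 and -0.46), and the smaller one, at a median of 9.86% of the gene's value, ranged from 9.74 to 935 without a call. The table does not say which transcripts the rows stand for, and 17.5%, 22.1% and 23.4% of 20258 rows were called in AV, AA and ADQ when each row was fitted by itself.

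Some of the 9 genes varied together from rat to rat. After the group means were taken off, the strongest relation among their 36 pairs was between Ccng1 and Lmnb1, at r = -0.82 (n = 44 rats), and Cdkn1b followed Lmnb1 at 0.59 and opposed Ccng1 at -0.51. Pmaip1 stood at -0.47 with Ccng1, 0.45 with Cdkn1b and 0.45 with Lmnb1, which were -0.53, 0.33 and 0.50 without rat 3989. The 7 rats with the highest Ccng1, at 4291 to 6035, were AV 4567 and 4572, AA 3985 and YNG V1, V2, V4 and V12, and their Lmnb1 values of 29.95 to 50.4 were all among the 10 lowest of the 44. All of them but AA 3985 were also among the 10 rats with the highest library totals. Within groups that total had r = 0.49 with Ccng1 and -0.59 with Lmnb1, and its part in their relation was not tested. Among the p53 targets Cdkn1a too ran against Ccng1, at -0.39 with and without rat 3989. For Cdkn1a and Pmaip1 r was 0.35, which was 0.22 without rat 3989, for Pmaip1 and Fas it was 0.34 and 0.20, and for Cdkn1a and Fas it was -0.003. Mdm2 and Cdkn1a stood at 0.01. The rats share scaling and differ in tissue makeup, and no test was made of these values.

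**Figure D4:**
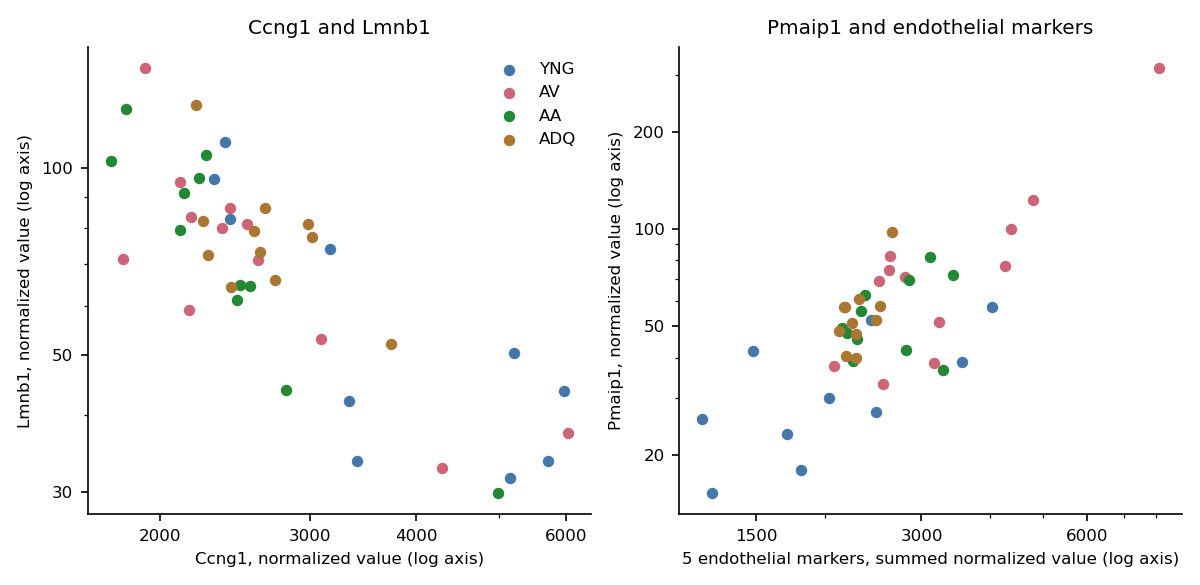
Left, normalized value of Lmnb1 (y axis) against Ccng1 (x axis), and right, Pmaip1 (y axis) against the summed value of 5 endothelial markers (x axis), 1 point per rat, log axes, coloured by group. The 7 rats with the highest Ccng1 have Lmnb1 of 29.95 to 50.4, and AV rat 3989 is the point at the top right of the second panel, with Pmaip1 at 314.1 and endothelial markers at 8122.

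The genes whose values were most like those of each member over the 44 rats, after group means were taken off, came from a search of 13696 genes. Pmaip1 was most like Plat (r = 0.84), which encodes tissue plasminogen activator, and Slfn5 (0.84), with 0.76 and 0.79 without rat 3989. Ccng1 was most like Tnpo3 (0.92), a nuclear import receptor, and Cacng2 (0.91), and Lmnb1 was most like Dcaf8 (0.84) and Cdan1 (0.83). Mdm2 was most like Schip1 (0.78) and Rpa2 (0.75), a subunit of replication protein A, and Cdkn1b like Entpd5 (0.74) and Ercc6 (0.70). Lower values were found for Cdkn1a (Ptp4a3 at 0.64 and Rtkn at 0.63), Gadd45a (C1qtnf9 at 0.66 and RGD1563072 at 0.65), Fas (Snx24 at 0.57 and Hnmt at 0.56) and Cdkn2c (LOC108348118 at 0.47).

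The counts of the pathway lists stand beside 21.3%, 26.6% and 28.1% of all genes called in AV, AA and ADQ against YNG. Of 40 other p53 targets listed, 35 were tested, and AV had 2 higher and 1 lower than YNG, AA had 3 lower, and ADQ had 1 higher and 3 lower. Their median log2 difference was 0.004, 0.03 and -0.02 in the 3 groups. In AV, Dram1, an autophagy regulator, was higher by 0.84 (p = 0.028). Steap3, an iron reductase, was lower in all 3 groups, by a log2 difference of -0.36 for AV, -0.42 for AA and -0.39 for ADQ (adjusted p = 0.0683, 0.0392 and 0.0338). Ei24 was lower in AA (-0.33) and ADQ (-0.27), Perp, an apoptosis effector at cell junctions, in AA (-0.54) and Phlda3, which inhibits AKT, in ADQ (-0.41). Against AV, Cd82 was lower in AA (-0.33, p = 0.0139) and ADQ (-0.44, p = 0.00153), in neither after adjustment.

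Of the 12 genes tested among p53 and its regulators, 1 was lower in AV, 1 higher and 2 lower in AA, and 1 higher and 2 lower in ADQ. Cop1, a ubiquitin ligase that can target p53, was lower in all 3 (-0.28, -0.38 and -0.25, adjusted p = 0.129, 0.0462 and 0.121). Kat5, an acetyltransferase, was lower in AA (-0.26) and ADQ (-0.25), Atm, a kinase of the DNA damage response, was higher in AA (0.34, p = 0.0496), and Mdm4, the partner of Mdm2, was higher in ADQ (0.40, p = 0.0379).

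Among the relatives of the 9 genes, 10 were tested, and 2 were higher and 1 lower in AV, and 2 higher and 2 lower in both AA and ADQ. Cdkn1c (p57), the third inhibitor of the family of Cdkn1a and Cdkn1b, went the other way from them. Its normalized value was 35.9 to 102 with a median of 62.8 in YNG, and its medians were 35.9 in AV, 40.2 in AA and 37.9 in ADQ. It was lower by a log2 difference of -0.63 in AV (p = 0.00495), -0.49 in AA (p = 0.0312) and -0.72 in ADQ (p = 0.00208, adjusted p = 0.0393). Ccni, a cyclin related to Ccng1, was lower in AA (-0.50) and ADQ (-0.59, adjusted p = 0.0311), with a value of -0.32 in AV (p = 0.0594), while for Ccng2 the values were 0.12, 0.12 and -0.11, none called, and it was lower in ADQ than in AV by a log2 difference of -0.23 (p = 0.0282). Gadd45b was higher in AV (0.32, p = 0.049) and AA (0.34, p = 0.039), and Gadd45g in AA (0.50, p = 0.0202) and ADQ (0.57, p = 0.00905). Tnfrsf1a, the TNF receptor, was higher in AV by 0.30 (p = 0.00465) and lower in AA (-0.25, p = 0.0157) and ADQ (-0.40, p = 0.000166, adjusted p = 0.134) than in AV. For the other lamins, Lmna and Lmnb2, no comparison with YNG passed, and Cdkn2b did not pass either. Cdkn2a, the p16 and ARF gene that is often used as a marker of senescence, was below the filter, at normalized values of 0.43 to 6.23 in YNG, 1.02 to 8.48 in AV, 0 to 6.02 in AA and 0.58 to 7.01 in ADQ, and was not tested.

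Of 20 genes of the G1 machinery tested, 4 were higher and 2 lower in AV, 2 and 3 in AA, and 3 and 4 in ADQ, with medians of 0.08, 0.11 and 0.09. Cdk2 (0.66), Tfdp2 (0.34) and E2f2 (0.41) were higher in AV, and E2f3 was higher by 0.60 in AA (adjusted p = 0.0462) and by 0.62 in ADQ (adjusted p = 0.0282). Cdk4, the kinase that Cdkn2c inhibits, was lower in AV (-0.23), AA (-0.25) and ADQ (-0.24), and Cks1b in AA (-0.34). Ccnd1, cyclin D1, was lower in ADQ by -0.52 (adjusted p = 0.0138) and lower in ADQ than in AV by -0.40 (p = 0.000788, adjusted p = 0.195). Of 17 proliferation genes tested, 3 were higher in AV, and these were Mcm3 (0.66), Top2a (0.91) and Mki67 (0.41). In AA Aurka was higher (0.29) and Mcm7 lower (-0.28), and in ADQ 2 were higher and 2 lower, with Mcm7 at -0.43 (adjusted p = 0.0323), Mcm6 at -0.47 and Mcm4 at 0.34. Against AV, Mcm3 was lower in AA (-0.72, p = 0.00101) and ADQ (-0.79, p = 0.000377), Top2a in AA (-1.16), and Mcm2 (-0.42) and Mcm7 (-0.27) in ADQ. Of 4 neural progenitor and neuroblast markers, 3 were lower in AV, 2 in AA and 1 in ADQ than in YNG, with sums of 828 to 1075 in YNG, 373.5 to 1034 in AV, 430.1 to 2357 in AA and 764 to 943 in ADQ.

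The partners of Fas, Noxa and lamin B1 were read in the same way. Of 10 genes of Fas signalling, whose median log2 difference was 0.10, 0.10 and 0.02, 2 were higher and 1 lower in AV, and 1 was higher and 1 lower in both AA and ADQ. Faslg, the ligand, was higher in AV by 1.10 (p = 0.0199) at low values of 0 to 15.04 in YNG and 1.13 to 27.7 in AV. Faim2, an inhibitor of Fas signalling in neurons, was lower in AV (-0.34), AA (-0.32) and ADQ (-0.38, adjusted p = 0.0338). Daxx was higher in AA (0.16). Of 9 genes of the BCL2 family tested, among them the targets of ABT-263, Bad was lower in AV (-0.22), and in ADQ Bid was higher (0.35) while Bak1 (-0.30) and Bad (-0.26) were lower. In AA none of the 9 was called. Of 9 genes of the nuclear lamina and its partners, Sun2 (0.20) and Zmpste24 (0.27) were higher in AV, Tmpo (0.23) and Sun1 (0.20) in AA, and none in ADQ.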

How the data were processed

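Libraries of poly(A)-selected RNA from the DG of 44 rats were sequenced on an Ion Torrent instrument. Per the labels and the study's methods, the authors aligned reads with STAR 2.5.3a to the rat genome rn6, counted them in Partek Flow and normalized them by the median ratio of DESeq2. The deposited values are this normalized signal, with no raw counts beside it. GEO's labels give age, and the treatment was read from the deposited table of attributes by rat name. The 24694 rows of the table belong to 18347 gene identifiers. Most identifiers (13985) stand in 1 row and the rest in up to 14, whose values were added up per gene. The depth of each rat was estimated from the steps of its low values, of which 79.2% to 84.2% per rat came out as whole reads within 0.05 of a read, too few to recover counts. Estimated depth was 10166691 to 24328425 reads.

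Genes with a mean of at least 5 were tested (15598) as log2(value + 1), which understates the change of low genes. limma 3.58.1 in R 4.3.3 with a mean-variance trend was fitted once over the 4 groups, two-sided. The threshold was an unadjusted p of 0.05, as in the study's methods, and Benjamini-Hochberg adjusted p over all genes tested stands beside it. The comparisons were 7, of which 4 are with YNG. Single values were also tested by permutation of the labels over rats with 100000 resamples (scipy 1.17.1). The scripts were tested on simulated data. The 9 genes and the pathway and marker lists were chosen with earlier results of these data known. Named beside the 9 were their tested relatives, the 3 genes with the smallest p under 0.05 of each other list and comparison, and for each of the 9 the pair of genes most like it over rats, with a mean of at least 20. A cell type score is the mean log2 value over the list's tested markers. Bbc3, Tnfrsf10b, Tp63, Chek1, Sirt1, Cdkn2d, E2f1, Ccnb2, Lbr and Mcl1 were not analysed here. Some genes that the rule would name are not reported here.

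Alternatives were pseudocounts of 0.5 and 5, a minimum mean of 20 and none, total and upper quartile scaling, the highest row of a gene, number series as a covariate, as a split and as an interaction, the groups compared alone, no trend, array weights and each rat left out. Added after seeing the data were the library total as a covariate, each row fitted by itself, and fits and correlations without rat 3989, or without it and rat 4107. Promoter sequences came from RefSeq GRCr8, and no coordinate was carried between it and rn6. Figures were drawn with matplotlib 3.10.9.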

Additional observations from a re-analysis of the deposited data

Results flagged for a closer look

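Between the 2 number series 5 differences had an interaction p below 0.05, of 63 tested over the 9 genes and 7 comparisons, and none had an adjusted p below 0.05 in limma. For Pmaip1 the log2 difference in series a minus that in series b was 1.432 in AV against YNG (p = 0.00407, adjusted p = 0.0651), 1.085 in ADQ against YNG (p = 0.0295, adjusted p = 0.509) and 1.143 for the mean of the older groups (p = 0.00634, adjusted p = 0.087). These 3 share the YNG rats, of which 6 are in series a and 4 in series b, with Pmaip1 medians of 24.5 and 45.6. For Mdm2 in AA against YNG it was -0.303 (p = 0.0389, adjusted p = 0.262), from -0.01 in series a and 0.30 in series b. For Cdkn2c in AA against ADQ it was 0.739 (p = 0.0236, adjusted p = 0.998). Over all genes tested, 21.8%, 8.89%, 20.3%, 17.3% and 4.37% had an interaction p below 0.05 in the comparisons of these results, in the order given. Of the YNG rats, examined at both ends for each gene, none of 18 lay apart from the others by Dixon's criterion, and the older groups hold more than 10 rats and were not examined.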

How the results depend on the processing

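Of the 9 genes, 5 were called in AV, 3 in AA and 6 in ADQ against YNG and 7 for the mean of the older groups. Of all genes 21.3%, 26.6%, 28.1% and 32.4% were called. Within series b alone the counts were 0, 1, 1 and 1, where 6.28%, 12.4%, 6.87% and 8.78% of all genes were called. A covariate for the library total gave 3, 1, 2 and 3. In AA total scaling gave 6, where 4413 genes were higher and 762 lower over all genes, and array weights gave 7. In AA against AV the count of 1 was 0 within series a (3.87% of all genes called), within series b (4.21%) and without rats 3989 and 4107. In ADQ against AV the count of 2 was 0 in those same 3 settings and 1 with a minimum mean of 20, total scaling, the library total or only the groups compared. In AA against ADQ series a gave 2 in place of 0. With each rat left out in turn the counts were 5 to 6 in AV, 3 to 5 in AA, 4 to 7 in ADQ, 5 to 7 for the mean of the older groups, 0 to 2 in AA against AV, 0 to 3 in ADQ against AV and 0 to 0 in AA against ADQ. No share of all genes stands beside the other counts here, so they are not a result about the 9 genes as such. The cause of these changes was not tested.

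No called difference of the 9 genes changed sign in any setting. With the row of highest mean alone, Mdm2 in ADQ was 0.04 (p = 0.715). The adjusted p of Pmaip1 in AV stayed below 0.05 with every rat left out in turn, that of Fas in 30 of 44 fits (0.0175 to 0.115) and that of Cdkn1a in 15 of 44 (0.0136 to 0.124). For Ccng1 in AA it did so in 11 of 44 limma fits (0.0155 to 0.116). For ADQ it did so in 31 fits for Pmaip1 (0.0164 to 0.104) and in 35 for Mdm2 (0.0262 to 0.0954). No paired analysis was possible because the replicate numbers only name the rats. Depth limits Fas most, at a median of 6 estimated reads in YNG.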
